A study of Mus musculus with 6 samples.

Results

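The genes described here are the matrix metalloproteinases (Mmp), the disintegrin metalloproteinases with and without thrombospondin motifs (Adamts and Adam) and the tissue inhibitors of metalloproteinases (Timp). They were chosen by symbol, taking every gene named Mmp, Adam, Adamts or Timp plus a number that was listed for all 6 samples under the same Ensembl identifier. That gave 71 of 21485 shared genes, namely 21 Mmp, 27 Adam, 19 Adamts and 4 Timp genes. The samples were cultures of mouse muscle-derived stem/progenitor cells (MDSPCs), slowly adhering cells won from dissociated skeletal muscle by repeated preplating on collagen-coated flasks. The 3 populations from young mice (Y1-1, PtC5 and FT-QU, young replicates 1 to 3) and 3 from old mice (O1-1, NA-f2 and NA-f3, old replicates 1 to 3) were grown in the same serum-containing proliferation medium and profiled by droplet 3′ single-cell RNA sequencing. The labels call them biological replicates and give no age, strain, sex or passage. They name no transgene, sort or treatment that would set the groups apart.

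MMPs are secreted or membrane-anchored zinc proteases that are made as inactive precursors and cut collagens, fibronectin and other matrix proteins. ADAM proteins are mostly membrane-anchored and release the outer parts of growth factors, Notch receptors and adhesion proteins, while ADAMTS enzymes are secreted and process procollagens, proteoglycans and fibrillin-rich matrix. TIMPs bind the active site of these proteases and block it, and TIMP2 also takes part in the activation of pro-MMP2 by MMP14 at the cell surface. In muscle these enzymes are known for the release and migration of satellite cells, the fusion of myoblasts and the remodelling of matrix after injury.

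The 6 samples held 8674 to 12541 kept cells and 133683424 to 196258384 unique molecular identifiers (UMIs, tags that count each RNA molecule once). Values in CPM are counts summed over the kept cells of a sample and scaled to a total of 1e6 over the shared genes. The kit counts 3′ ends, so CPM was not divided by transcript length, and any order of genes is an order of UMI counts. The 10 myogenic markers summed to between 340 CPM in old replicate 1 and 3758 CPM in old replicate 3, so the cultures differed widely in their myogenic RNA. Of markers for other cell types, 4 of 6 endothelial genes, 6 of 8 immune genes, 3 of 4 glial genes, 3 of 10 fibro-adipogenic genes (Lum, Dpt and Pi16) and 1 of 6 mural genes were under 1 CPM in every sample. The fibro-adipogenic list summed to 283 to 511 CPM, led by Gsn at 149 to 317 CPM, and the mural list to 39.2 to 1503 CPM, led by Acta2. Within samples, Acta2 was higher in cells with Myog UMIs than in those without (log2 fold change 3.33, edgeR adjusted p = 0.000121). Mural Rgs5 was lower in them (-1.73, edgeR adjusted p = 0.0232). The mural sum is thus not read as an amount of mural cells. Endothelial Tek stood at 58.9 CPM in young replicate 2 and at 0.396 CPM or less elsewhere. Any pair of libraries shared 23 to 35 cell barcodes, at most 0.369% of the smaller one. Young replicate 1 and old replicate 1 had been counted on a shorter gene list than the other 4 samples.

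Most RNA of the 71 genes came from the inhibitors. The Timp genes summed to 1814, 824 and 840 CPM in the young samples and to 1344, 1875 and 1006 CPM in the old ones. The Mmp genes summed to 110, 79.4 and 140.1 CPM in young and 110, 93.7 and 71.2 CPM in old samples. The Adam genes stood at 138, 188 and 149 CPM in young and 150.3, 142 and 119 CPM in old samples, and the Adamts genes at 44.3, 136 and 74.1 CPM against 67.9, 66.4 and 66.7 CPM. Each family thus had overlapping values in the groups. The ratio of Timp UMIs to those of the protease families together was 6.21, 2.04 and 2.32 in young samples and 4.09, 6.20 and 3.92 in old ones, and it overlapped as well.

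**Figure D1:**
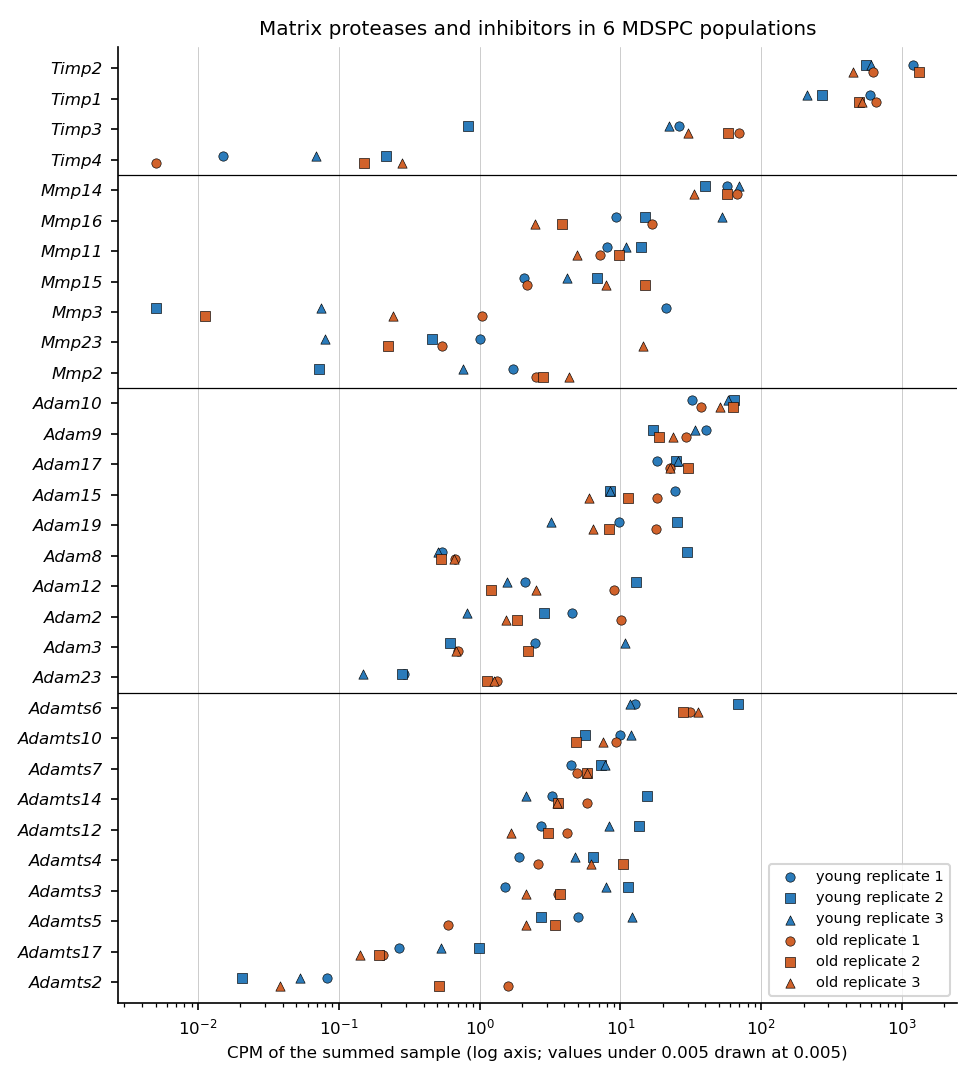
Level of each named member in CPM on a log axis, with 1 point per sample; blue marks young and orange old, and circle, square and triangle are replicates 1, 2 and 3. Timp2 and Timp1 lie above all other members in every sample, and several low members differ by more than 10 times between samples of 1 group.

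A few genes carried each family. Timp1 and Timp2 made up 94.8% to 99.9% of Timp UMIs. Mmp14, the membrane-anchored MMP that cuts fibrillar collagen and activates pro-MMP2, gave 46.7% to 61.2% of Mmp UMIs. Adam9, Adam10, Adam15 and Adam17 together gave 60.8% to 87.0% of Adam UMIs, and Adamts6 gave 15.9% to 53.8% of Adamts UMIs. At the other end, 9 Mmp, 15 Adam, 8 Adamts genes and Timp4 were under 1 CPM in all 6 samples. No UMI at all was seen for 5 genes, which were Mmp7 and the germline-type genes Adam20, Adam25, Adam29 and Adam39.

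For old against young, 50 of the 71 genes passed the filter on low counts (13 Mmp, 18 Adam, 15 Adamts and 4 Timp genes). None of them was called higher or lower at an adjusted p under 0.05 in edgeR's quasi-likelihood test, where 0.00689% of all 14512 tested genes were called higher and 0.0% lower. At an unadjusted p under 0.05, 4 of the 50 passed, against 3.53% of all genes. These were Adam23 and Adamts2 with higher values in old samples, where 2.51% of all genes passed, and Adamts17 and Adamts5 with lower values, where 1.02% did. Young and old CPM did not overlap for 4 of the 50, against 5.93% of all genes. Those 4 were Adam23, Mmp2 and Timp3 with old above young, where 5.02% of all genes did so, and Adamts17 with old below young, where 0.903% did so. The median log2 fold change of old over young was -0.07 over the 50 genes, of which 23 were above 0, and -0.01 over all tested genes. DESeq2 on the same counts called 1 member, Adam23, at a log2 fold change of 2.29 and an adjusted p of 0.00219, while it called 1.24% of all genes higher and 0.269% lower. In a culture summed over its cells, fewer cells of a kind and less RNA per cell cannot be told apart.

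Timp2 (chr11:118301069-118355740, GRCm38) was the most abundant member in 4 of the 6 samples, with Timp1 ahead in old replicates 1 and 3. It stood at 1195, 552 and 607 CPM in young replicates 1 to 3 and at 622, 1319 and 453 CPM in old replicates 1 to 3. The groups overlapped throughout, with young replicate 1 and old replicate 2 about equally high. The log2 fold change of old over young was 0.01 (SE 0.56). Genes on chromosome 11 as a whole lay above their median over samples in old replicate 2, by a median of 0.32 on the log2 scale. Without that sample the log2 fold change of Timp2 was -0.68.

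Timp1 (chrX:20870166-20874735), a secreted inhibitor of most soluble MMPs, stood at 593, 271 and 211 CPM in young and at 652, 498 and 523 CPM in old samples. All old samples lay above young replicates 2 and 3, while young replicate 1 lay between old replicates 3 and 1. Old over young gave a log2 fold change of 0.69 (SE 0.37) and an unadjusted p of 0.115 in edgeR. Among the 4 samples on the longer gene list it was 1.14 (SE 0.27). In the shorter-list pair the old sample had 652 and the young sample 593 CPM, before the TMM scaling that the fold changes use. The TMM factors over the shared genes were 1.13 for old replicate 1 and 0.856 for young replicate 1. After that scaling, young replicate 1 lay above every old sample. In old replicate 2 the genes of the X chromosome as a whole lay above their median over samples by a median of 0.76 on the log2 scale, and without that sample the log2 fold change of Timp1 was 0.64 (SE 0.44).

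At an equal depth of 5000 UMIs per cell, Timp1 was seen in 83.7%, 66.2% and 58.1% of cells in young and in 89.3%, 87.0% and 76.6% in old samples (69.4% ± 13.1 and 84.3% ± 6.75, mean ± SD, n = 3 each). Without thinning the shares were 91.2% ± 3.53 and 95.1% ± 4.66. Timp2 was seen in 83.0% to 98.2% of thinned cells in all samples. At least 1 Timp UMI of any kind was seen in 96.0% to 99.6% of thinned cells. No cell type known to lack them was present to show how much free RNA adds. The 73 to 224 barcodes per sample left out as shallow held Timp1 at 45.2 to 377 CPM, from 4 to 50 UMIs.

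Timp3 (chr10:86300372-86349506), which binds to the matrix and inhibits several ADAM and ADAMTS enzymes besides MMPs, had the widest range among the abundant inhibitors. It stood at 26.3, 0.822 and 22.0 CPM in young samples and at 69.3, 58.0 and 30.2 CPM in old ones. The groups did not overlap, but old replicate 3 was close to young replicate 1, and young replicate 2 was lower than every other sample by more than 10 times. Its log2 fold change of 1.71 (SE 1.06) had an unadjusted p of 0.164 in edgeR. Without young replicate 2 it was 1.05 (SE 0.33), and without young replicate 3 it was 3.51 (SE 1.51). Timp4 was near absent, with at most 0.279 CPM and 135 UMIs over all samples. Timp1, Timp3 and Timp4 lie inside Syn1, Syn3 and Syn2 on the opposite strand, and Timp2 shares its strand with the overlapping Cep295nl. The strand setting of the counting is not given in the sources used here, so reads of such partners cannot be told apart.

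**Figure D2:**
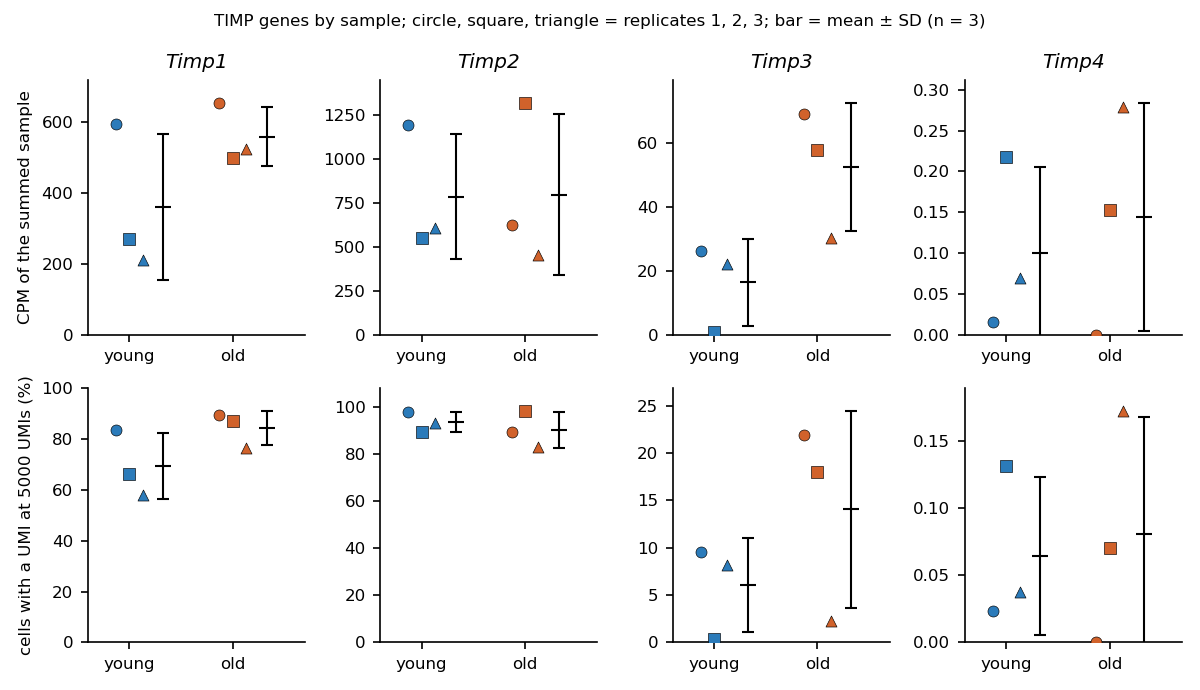
The 4 Timp genes by group: CPM of the summed sample (top) and percent of cells with at least 1 UMI after thinning to 5000 UMIs per cell (bottom), with 1 point per sample and mean ± SD (n = 3) beside it, cut at 0. In old replicate 3, Timp3 is close to young replicate 1 in CPM, but it is seen in only 2.29% of cells.

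At equal depth, the share of cells with Timp3 followed its CPM in order except in old replicate 3. At 5000 UMIs per cell the share was 9.58%, 0.366% and 8.23% in young samples and 21.9%, 18.0% and 2.29% in old ones, and without thinning it was 21.4%, 0.925% and 22.1% against 39.0%, 39.0% and 4.19%. Old replicate 3 was thus above young replicates 1 and 3 in CPM and below them in share, and no order of the groups was read from the share. Had the Timp3 UMIs of old replicate 3 been spread evenly, 7.26% of its thinned cells would have held one. Cells with Timp3 in that sample held 3.29 UMIs each on average, and 80.8% of its Timp3 UMIs lay in the 1% of cells with the most. In old replicates 1 and 2 that figure was 14.9% and 16.8%.

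**Figure D3:**
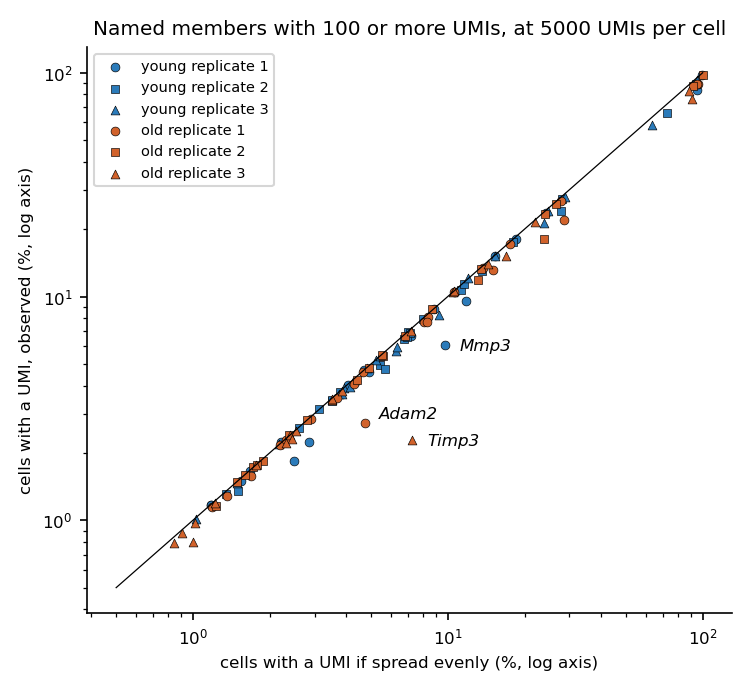
Percent of cells with a UMI after thinning (vertical) against the percent that an even spread of the same UMIs would give (horizontal), both on log axes, for named members with 100 or more UMIs in a sample; the line marks equality. Timp3 in old replicate 3, Adam2 in old replicate 1 and Mmp3 in young replicate 1 lie furthest below the line.

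In old replicate 3 the Timp3 UMIs lay mostly in cells that also held a UMI of Col1a1, the main chain of type I collagen. Such cells numbered 286 there (2.28% of kept cells), against 2, 2 and 19 in young replicates 1 to 3 and 12 and 35 in old replicates 1 and 2. They held 86.2% of the Timp3 UMIs of old replicate 3 and 76.7% of its Mmp2 UMIs. Timp3 stood at 496 CPM in them (95% exact Poisson interval 482 to 511) and at 4.41 CPM in the other cells (4.11 to 4.74). Mmp2, gelatinase A, which cuts denatured collagen and type IV collagen, stood at 63.5 CPM (58.5 to 68.7) against 1.07 CPM (0.92 to 1.23). Such intervals cover counting error only. These cells come from 1 sample and were singled out after the values were seen, so they are described without a test.

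Other members were also higher in the Col1a1-bearing cells of old replicate 3. Timp1 stood at 1745 against 455 CPM, Timp2 at 979.5 against 424 CPM and Mmp14 at 77.9 against 30.8 CPM. Adam15 stood at 28.2 against 4.76 CPM, Adam19 at 33.9 against 4.85 CPM and Adamts5, an aggrecan- and versican-cutting enzyme, at 11.7 against 1.61 CPM. Other samples had few such cells, and members went in both directions there. Timp3 stood at 113 against 57.7 CPM in old replicate 2 and at 54.8 against 69.4 CPM in old replicate 1. Of the 10 fibro-adipogenic markers, only Dcn and Pdgfra were read in the Col1a1-bearing cells of old replicate 3. Dcn stood at 21.5 against 0.381 CPM and Pdgfra at 4.38 against 0.104 CPM. The whole sample held 1 UMI of Lum, 7 of Dpt and 8 of Pi16. The other markers of that list were not read here, so the pair gives no name to these cells. The myogenic regulator Myog stood at 128 against 979 CPM and Myod1 at 177 against 949.7 CPM. The Col1a1-bearing cells had a median of 33847 UMIs and all kept cells of the sample 13001, and the part of this depth, or of droplets with more than 1 cell, was not tested.

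**Figure D4:**
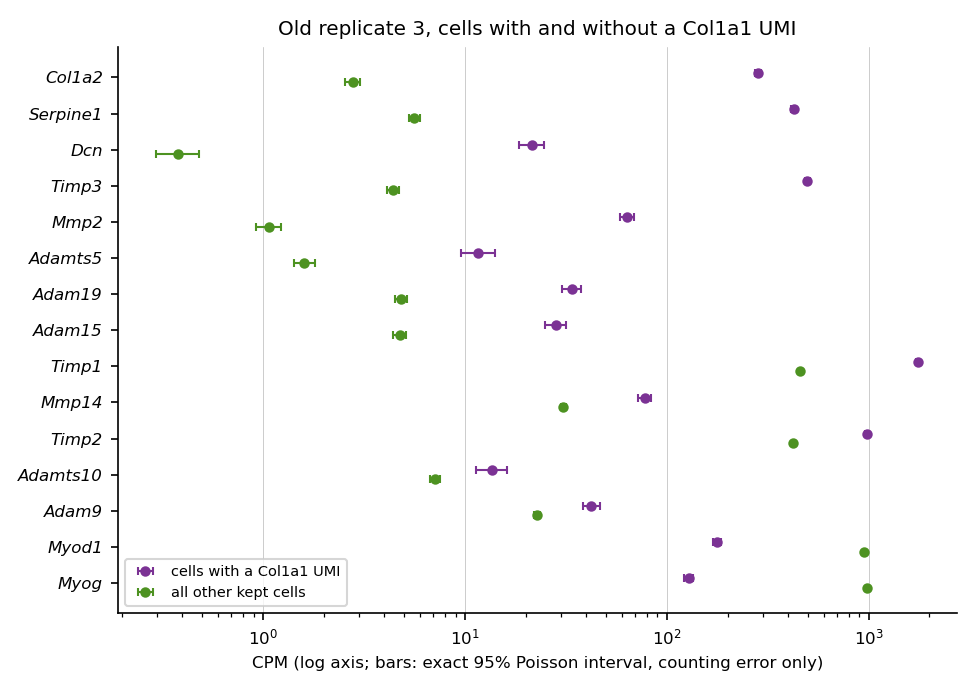
CPM on a log axis in the cells of old replicate 3 with a Col1a1 UMI (286 cells, purple) and in its other kept cells (green), with exact 95% Poisson intervals for counting error. Timp3 and Mmp2 differ most among the members shown, and Myod1 and Myog are lower in the Col1a1-bearing cells.

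The lack of overlap of Timp3 and Mmp2 between young and old rested on these cells. With every cell that held a Col1a1 UMI removed from all 6 samples, old replicate 3 fell to 4.41 CPM of Timp3, below young replicates 1 and 3, and to 1.07 CPM of Mmp2, below young replicate 1. The groups then overlapped for both genes. The log2 fold change of Timp3 was then 1.34 (SE 1.29) and that of Mmp2 1.61 (SE 1.08). With all cells, Mmp2 (chr8:92827291-92853420) stood at 1.74, 0.0724 and 0.757 CPM in young and 2.52, 2.83 and 4.34 CPM in old samples, at a log2 fold change of 2.29 (SE 1.20, edgeR, unadjusted p = 0.109). That value was 1.37 without young replicate 2, 2.99 without young replicate 3, 3.24 without young or old replicate 1 and 1.52 without the 10% of cells with most UMIs. When either first replicate is left out, the gene list term takes up the other. Such a fold change, here and for other genes, rests on the longer-list samples alone. In old replicates 1 and 2, cells with a Col1a1 UMI held at most 0.942% of Timp3 and 2.19% of Mmp2 UMIs. The higher Timp3 of those samples was thus as large without them.

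Mmp14 (chr14:54431612-54445364) was the most abundant Mmp gene in all 6 samples. It stood at 56.9, 40.0 and 70.0 CPM in young and at 66.9, 57.4 and 33.3 CPM in old samples, with overlapping groups and a log2 fold change of -0.20 (SE 0.29). At 5000 UMIs per cell it was seen in 17.5% to 28.0% of cells in young and 14.0% to 26.7% in old samples. Its membrane-type relative Mmp16 stood at 9.33, 15.1 and 52.5 CPM in young and at 16.8, 3.87 and 2.48 CPM in old samples. Young replicate 3 was the highest and old replicates 2 and 3 the lowest, while old replicate 1 lay above young replicates 1 and 2. Old over young stood at -2.22 on the log2 scale (SE 1.04, edgeR unadjusted p = 0.0807), and between -3.33 without young or old replicate 1 and -1.21 without young replicate 3. Mmp15, also of the membrane type, stood at 2.08, 6.79 and 4.17 CPM in young and 2.17, 14.9 and 7.94 CPM in old samples.

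Mmp11, or stromelysin 3, which is activated inside the cell by furin, stood at 8.10, 14.1 and 10.9 CPM in young and 7.21, 9.85 and 4.92 CPM in old samples, with a log2 fold change of -0.67 (SE 0.33). Mmp23 was at most 1.00 CPM in 5 samples and at 14.6 CPM in old replicate 3, where 6.99% of thinned cells held it. The Mmp23 fold change of 3.40 (SE 2.64) rested on that sample and was -0.72 without it. Gelatinase B, Mmp9, did not exceed 1.98 CPM in any sample.

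Of the members, 8 Mmp genes lie in a cluster on chromosome 9 (chr9:7272514-7699585, GRCm38). They are the collagenases Mmp8 and Mmp13, the stromelysins Mmp3 and Mmp10, macrophage elastase Mmp12, matrilysin Mmp7, and Mmp20 and Mmp27. Genes with a letter after the number are outside the rule, so the cluster may hold further Mmp genes that were not read. These 8 members were low or limited to some cultures. Mmp3 stood at 21.0, 0.00 and 0.0741 CPM in young and at 1.04, 0.0113 and 0.241 CPM in old samples. Young replicate 1 was far above the others and old replicate 1 came next, and the 0 UMIs of young replicate 2 allow up to 0.0155 CPM. The fitted log2 fold change of 0.18 had an SE of 2.24 and changed sign between settings. Mmp10 stood at 5.37, 0.486 and 0.0529 CPM in young and 8.72, 1.07 and 0.329 CPM in old samples, so the first replicates of both groups were highest. Both of these samples were counted on the shorter gene list, and the list and these cultures cannot be told apart. Mmp13 reached 1.71 CPM in young replicate 1 and Mmp12 0.988 CPM in young replicate 2. Mmp8, Mmp20 and Mmp27 did not exceed 0.0394 CPM.

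Proximal AP-1 sites are known from the promoters of several genes of this cluster, so the letters TGANTCA (the same on both strands) were searched in RefSeq promoter windows (GRCm38.p6, 250 bases before to 50 after each start). They were found in at least 1 window of 6 of the 8 cluster members, namely Mmp3, Mmp7, Mmp10, Mmp12, Mmp13 and Mmp20. Of the 34 other members with a window, 4 held them (Adam19, Adam20, Adam25 and Adam29). The letters read TGAATCA in Mmp20, Adam20 and Adam25, and TGAGTCA or TGACTCA in the other matched members. A gene can have several windows. Counted by window, 10 of the 47 windows of members held them (21.3%), and of all 32851 windows 7.81% did. Mmp7 and Mmp12 each also have a window without a match. The stretches around the match are shown for the 4 cluster members that reached about 1 CPM in some sample, on the plus strand with the match in capitals.
Mmp13, chr9:7272449-7272513: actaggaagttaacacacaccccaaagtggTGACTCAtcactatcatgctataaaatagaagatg
Mmp12, chr9:7347300-7347366: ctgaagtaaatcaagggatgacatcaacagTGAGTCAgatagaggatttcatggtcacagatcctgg
Mmp3, chr9:7445746-7445812: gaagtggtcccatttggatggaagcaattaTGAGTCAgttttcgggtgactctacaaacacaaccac
Mmp10, chr9:7502249-7502315: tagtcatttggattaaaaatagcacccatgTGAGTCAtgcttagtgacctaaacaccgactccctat
The offsets of the first matched base from the start were -35, -44, -46 and -63. For Mmp12 that start is the downstream one (window chr9:7347124-7347423), and the window at its upstream start (chr9:7344147-7344446) held no match. A match of letters is a description and says nothing on binding in these cells.

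Within young replicate 1, the Mmp3 UMIs were spread unevenly. Mmp3 was seen in 6.10% of its thinned cells, where an even spread would give 9.79%, and the 1% of cells with the most held 42.6% of the UMIs. The 152 cells with 2 or more Mmp3 UMIs after thinning (1.80% of cells) were set beside the 7929 cells with none. Mmp13 stood at 19.7 CPM (95% exact Poisson interval 11.1 to 32.6) in the former and 1.16 CPM (0.85 to 1.55) in the latter, and Mmp10 at 26.3 CPM (16.1 to 40.7) against 5.10 CPM (4.42 to 5.85). The chemokine gene Ccl2 stood at 190.9 against 36.7 CPM, and Myog at 6.58 (2.14 to 15.4) against 42.1 CPM. Timp1 (592 against 592 CPM), Timp2 (1138 against 1148 CPM) and Mmp14 (52.7 against 56.0 CPM) were nearly the same in both. Median depth was 13954 and 13836 UMIs. The comparison is within 1 sample and has no test.

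Of the Adam genes, Adam10 and Adam17, the main sheddases of Notch receptors and of EGF-family ligands, varied little. Adam10 stood at 32.4, 63.9 and 57.9 CPM in young and 37.5, 62.7 and 51.2 CPM in old samples, with a log2 fold change of -0.09 (SE 0.19). Adam17 lay between 18.3 and 30.004 CPM in all samples, with a log2 fold change of 0.04 (SE 0.20). Adam9 stood at 40.7, 17.1 and 34.0 CPM in young and 29.2, 18.9 and 23.8 CPM in old samples, and Adam15 at 24.3, 8.38 and 8.46 CPM against 18.1, 11.3 and 5.98 CPM. The first replicate of each group was highest in Adam15, and these are the samples on the shorter list.

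Adam12 and Adam19, meltrins named for their presence in fusing myoblasts, differed between cultures of the same group. Adam12 stood at 2.12, 12.9 and 1.57 CPM in young and 9.07, 1.21 and 2.51 CPM in old samples. Adam19 stood at 9.77, 25.2 and 3.21 CPM in young and 17.8, 8.35 and 6.37 CPM in old samples. Young replicate 2 was highest and old replicate 1 next for both genes, and the groups overlapped. Adam8, best known from leukocytes, stood at 29.7 CPM in young replicate 2 and between 0.508 and 0.674 CPM in the other 5 samples. The 8 immune markers summed to 4.26 CPM in young replicate 2 and to 1.48 to 8.44 CPM over all samples. Of these markers, Csf1r had 607 UMIs in young replicate 2 (3.14 CPM, against 0.0451 to 0.352 CPM in the other samples) and Cd68 had 210 UMIs (1.09 CPM, the lowest sample). Ptprc had 1 UMI there, and Adgre1, Tyrobp and Cd3e had none. The part of cells with these markers in the Adam8 value was not tested. Adam8 was spread over cells there, in 13.1% of thinned cells. Its fold change of -3.40 (SE 1.97) turned to 0.16 without that sample.

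Adam23 (chr1:63445891-63596276), a family member without protease activity that binds integrins, was the member with the smallest unadjusted p. It stood at 0.292, 0.279 and 0.148 CPM in young and at 1.33, 1.12 and 1.28 CPM in old samples (0.24 ± 0.0795 and 1.24 ± 0.11, mean ± SD, n = 3 each). All old samples were above all young ones by more than 3 times. On the log2 scale old exceeded young by 2.29 (SE 0.61), with an unadjusted p of 0.0109 and an adjusted p of 1.00 in edgeR. It lay between 1.98 and 2.53 when any 1 sample was left out, and it was 2.32 without the Col1a1-bearing cells. The whole gene rests on 755 UMIs. Adam2 and Adam3, known from sperm, were detected in all samples, with Adam2 highest in old replicate 1 (10.2 CPM) and Adam3 in young replicate 3 (10.7 CPM). In old replicate 1, Adam2 was seen in 2.72% of thinned cells where an even spread would give 4.72%, and 64.5% of its UMIs lay in 1% of cells.

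Among the Adamts genes, Adamts6, which with Adamts10 acts on fibrillin-rich matrix, was the most abundant in 5 of the 6 samples. Adamts5 and Adamts10 were just ahead of Adamts6 in young replicate 3. Adamts6 stood at 12.7, 68.5 and 11.8 CPM in young and 31.5, 27.7 and 35.9 CPM in old samples, so the old samples lay close together between young replicate 2 and the other young ones. Its log2 fold change was 0.10 (SE 0.70). Adamts10 stood at 9.92, 5.63 and 11.8 CPM in young and 9.37, 4.81 and 7.50 CPM in old samples, with overlapping groups. Adamts5 stood at 5.04, 2.73 and 12.1 CPM in young and 0.601, 3.42 and 2.14 CPM in old samples, with young replicate 2 below old replicate 2. The log2 difference of -2.01 (SE 0.78) had an unadjusted p of 0.0437 and an adjusted p of 1.00 in edgeR. It was -2.67 without young replicate 2 and -1.33 without young or old replicate 1. Adamts4, another proteoglycan-cutting enzyme, stood at 1.92 to 6.39 CPM in young and 2.61 to 10.4 CPM in old samples, and Adamts1 at 1.85 to 5.91 CPM in young and 1.32 to 2.31 CPM in old samples.

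The procollagen N-proteinases Adamts2, Adamts3 and Adamts14 trim the ends of fibrillar collagens. Adamts2 stood at 0.0823, 0.0207 and 0.0529 CPM in young and 1.60, 0.512 and 0.0383 CPM in old samples. Old replicates 1 and 2 were high and old replicate 3, the sample with the most Col1a1-bearing cells, was within the young range. With 365 UMIs in all, the gene had a log2 fold change of 3.24 (SE 1.09) at an unadjusted p of 0.0273 and an adjusted p of 1.00 in edgeR. It was 1.97 without old replicate 2 and 3.83 without old replicate 3. Adamts3 (1.52, 11.3 and 7.96 CPM against 3.60, 3.75 and 2.15 CPM) and Adamts14 (3.26, 15.5 and 2.13 CPM against 5.81, 3.59 and 3.53 CPM) overlapped between the groups. Young replicate 2 was the highest sample for both.

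Adamts7 and Adamts12, which cut cartilage oligomeric matrix protein, differed in their spread over samples. Adamts7 was even, at 4.47 to 7.75 CPM in all samples. Adamts12 stood at 2.75, 13.6 and 8.32 CPM in young and 4.19, 3.05 and 1.67 CPM in old samples, with a log2 fold change of -1.43 (SE 0.66, edgeR, unadjusted p = 0.0783) that was -2.19 without young or old replicate 1. Adamts17 stood at 0.269, 0.988 and 0.535 CPM in young and 0.205, 0.191 and 0.142 CPM in old samples. The groups did not overlap, but the lowest young value of 0.269 CPM was close to the highest old one of 0.205 CPM. A log2 fold change of -1.70 (SE 0.66) on 419 UMIs had an unadjusted p of 0.0443 and an adjusted p of 1.00 in edgeR.

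Because the cultures differed in myogenic RNA, members were compared within samples, between cells with and without UMIs of Myog, a regulator of myoblast differentiation. After thinning to 5000 UMIs, cells with 2 or more Myog UMIs were set against cells with none, and each sample was its own pair. A cell with none at this depth can still express Myog, and the part of free RNA was not tested. Positive and negative cells numbered 202 and 8139, 1533 and 8478, and 244 and 10088 in young replicates 1 to 3, and 837 and 7251, and 4329 and 6609 in old replicates 2 and 3. Old replicate 1 had 34 positive cells, under the minimum of 50, and was left out. With 1 or more Myog UMIs as the mark of a positive cell it had 68, so that alternative fit also holds old replicate 1. Cells with 1 Myog UMI, 103 to 1241 per sample used, entered neither class.

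Of the 31 members tested there, 1 rose and 9 fell in Myog-positive cells at an adjusted p under 0.05 (edgeR), where 14.9% of all 12214 tested genes rose and 18.0% fell. The median log2 fold change was -0.22 over the 31 members, 10 of them above 0, and -0.06 over all genes. Of the cell division genes Mki67 and Top2a, looked at after the member values were seen, neither was called, with log2 fold changes of -1.30 (SE 0.43, edgeR adjusted p = 0.0678) and -1.39 (SE 0.54, adjusted p = 0.114). The part of cell division in the member results was not tested.

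**Figure D5:**
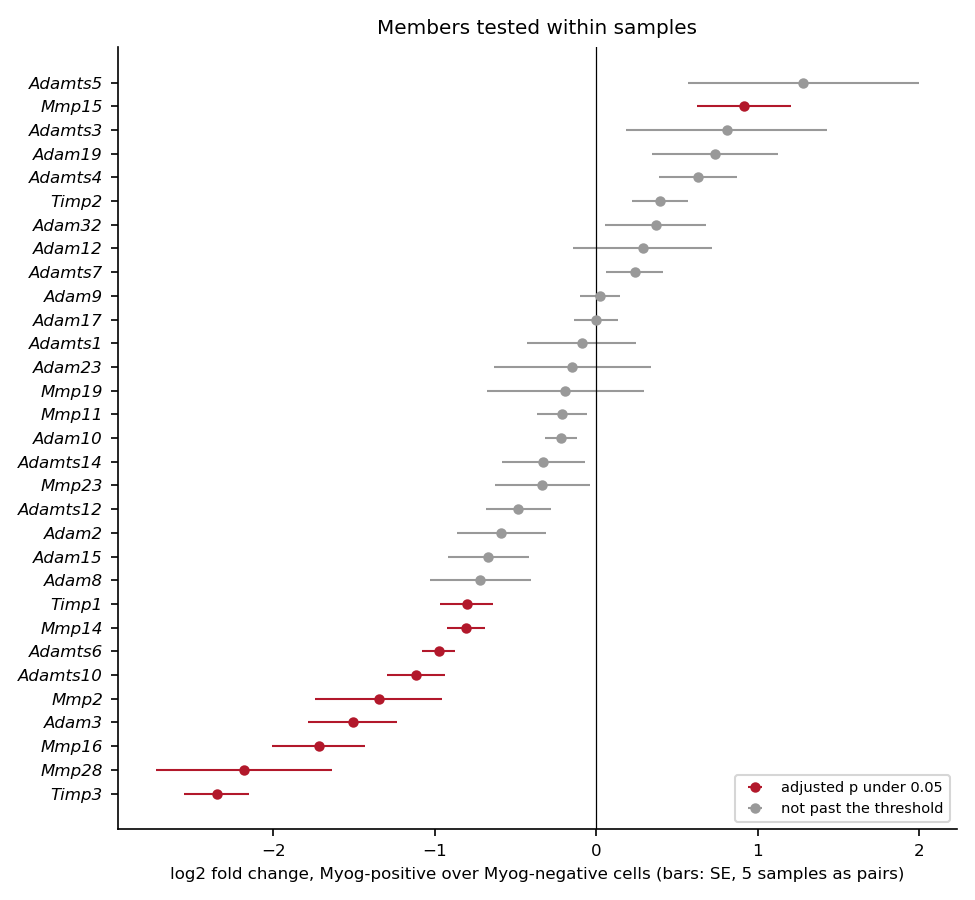
Log2 fold change of Myog-positive over Myog-negative cells for the 31 members tested, with model standard errors over 5 sample pairs; red marks an adjusted p under 0.05. Timp3 is lowest at -2.35 and Mmp15 is the only called member above 0.

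Of the 3 inhibitors tested, Timp3 and Timp1 fell in Myog-positive cells and Timp2 was not called. Timp3 stood at 3.96, 0.397 and 6.64 CPM in the positive cells of young replicates 1 to 3 and at 11.6 and 3.23 CPM in those of old replicates 2 and 3. Those values rest on 4, 3 and 8 UMIs in the young and on 48 and 69 UMIs in the old samples. The matching negative cells had 26.0, 0.886 and 20.2 CPM, and 62.0 and 23.1 CPM. Timp3 was lower in 5 of 5 pairs, by -2.35 on the log2 scale (SE 0.20, edgeR adjusted p = 0.000248). Without old replicate 3, the sample with the most Col1a1-bearing cells, it was -2.12 (SE 0.25, edgeR adjusted p = 0.0015). The difference was smaller at -1.74 (SE 0.18) with 1 or more Myog UMIs as the mark of a positive cell, where old replicate 1 also entered. Without thinning it was -1.45 (SE 0.21, edgeR adjusted p = 0.00602).

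Timp1 stood at 261, 166 and 120 CPM, and 431 and 242 CPM in the positive cells, against 601, 283 and 207 CPM, and 509 and 629 CPM in the negative ones. It was lower in 5 of 5 pairs, by -0.80 on the log2 scale (SE 0.16, edgeR adjusted p = 0.00981). Timp2 stood at 1140, 921 and 584 CPM, and 1904 and 459 CPM in the positive cells against 1148, 497 and 603 CPM, and 1237 and 411 CPM in the negative ones. It was higher in young replicate 2 and old replicates 2 and 3 and nearly equal in the other pairs, and its fold change of 0.40 (SE 0.17, adjusted p = 0.12) was not called.

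Membrane-type enzymes moved in both directions. Mmp14 stood at 23.8, 25.8 and 46.5 CPM, and 28.9 and 20.6 CPM in the positive cells against 56.8, 42.9 and 69.7 CPM, and 59.7 and 38.8 CPM in the negative ones, a fall in 5 of 5 pairs by -0.81 (SE 0.12, edgeR adjusted p = 0.0017). Mmp16 fell by 1.72 on the log2 scale (SE 0.29, edgeR adjusted p = 0.00389), from 3.28 to 56.3 CPM in negative cells to 0.00 to 14.95 CPM in positive ones. The positive cells of a sample held 0 to 36 Mmp16 UMIs. Mmp15 rose by 0.91 on the log2 scale (SE 0.29, edgeR adjusted p = 0.0456). It stood at 13.9, 7.82 and 9.14 CPM, and 17.2 and 11.1 CPM in the positive cells against 2.07, 6.92 and 4.25 CPM, and 13.5 and 5.83 CPM in the negative ones. The call of Mmp15 was lost without young replicate 3, old replicate 2 or old replicate 3 (adjusted p = 0.0941, 0.065 and 0.141) and without thinning (0.0526).

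Both enzymes of fibrillin-rich matrix were lower in Myog-positive cells. Adamts6 stood at 7.92, 33.9 and 5.81 CPM, and 14.6 and 21.7 CPM against 15.2, 73.0 and 13.5 CPM, and 30.2 and 46.5 CPM, at a log2 fold change of -0.98 (SE 0.10, edgeR adjusted p = 0.000442). Adamts10 fell by 1.12 on the log2 scale (SE 0.18, edgeR adjusted p = 0.00266) and the sperm gene Adam3 by 1.51 (SE 0.28, adjusted p = 0.0046), the latter on 1 to 7 UMIs in the positive cells of a sample. Mmp28, a secreted enzyme also called epilysin, was at -2.18 (SE 0.55, adjusted p = 0.0162), on 0 to 2 UMIs in the positive cells of a sample. It was at -1.15 with 1 or more Myog UMIs as the mark and at -1.08 without thinning. Its CPM was lower in the positive cells in 5 of 5 pairs, though in young replicate 3 the values were close (0.831 against 0.903 CPM). With 1 UMI added to each count, the log2 difference was 0.43 and 0.85 in young replicates 1 and 3 and -2.89 to -0.62 in the other pairs. The young positive cells held 0 or 1 Mmp28 UMI per sample, which cannot set a direction. Mmp2 was at -1.35 (SE 0.40, adjusted p = 0.0295), on 0 to 16 UMIs, and at -0.50 without thinning. Its CPM was lower in 4 of 5 pairs and higher in young replicate 3 (0.831 against 0.682 CPM, with 1 UMI in the positive cells). With 1 UMI added, the log2 difference of Mmp2 was 0.31, 0.88 and 1.24 in young replicates 1 to 3. In old replicates 2 and 3 it was -0.69 and -1.97. The young positive cells held 0 or 1 Mmp2 UMI per sample, which again cannot set a direction. Both calls were lost without old replicate 3 (-1.44, adjusted p = 0.15 for Mmp28 and -0.67, 0.415 for Mmp2), and that of Mmp2 also without old replicate 2 (0.052). Among the members not called, Adam9, Adam10 and Adam17 lay between -0.22 and 0.02, and Adam19 (0.73, SE 0.39) and Adam12 (0.29, SE 0.43) varied between samples.

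Whether the Myog difference itself depended on the group was tested as an interaction. None of the 31 members passed at an adjusted p under 0.05 in edgeR, where 0.0164% of all genes did. At an unadjusted p under 0.05 it was 1 member, Adam23, against 3.35% of all genes. Adam23 had 0 UMIs in the positive cells of the 3 young samples.

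A list of 62 further genes of the pathway was read beside the members. It holds activators of proteases, other inhibitors and clearance receptors, partners of ADAM10 and ADAM17, protease-free ADAMTS-like genes, matrix substrates and shed substrates. Of 57 tested for old against young, none was called in edgeR at an adjusted p under 0.05. At an unadjusted p under 0.05, 4 were higher in old samples, against 2.51% of all genes, and 0 were lower, against 1.02%. These were Thbs2, Col1a1, Col1a2 and Ereg. DESeq2 called the same 4 genes higher (adjusted p = 0.00609, 0.0272, 7.52e-14 and 1.5e-06), against 1.24% of all genes, and no other gene of the list. Young and old CPM did not overlap for 3 of the 57 (Col1a2, Ereg and Tgfa), against 5.93% of all genes. Tgfa stood at 0.921, 0.0414 and 1.43 CPM in young and 4.48, 1.90 and 2.97 CPM in old samples. The list was chosen with earlier results of these data known, so such counts are no test of the list. Of the 1907 Col1a1 UMIs 1829 lay in old replicate 3, and old replicate 1 at 0.0793 CPM was below young replicate 3 at 0.101 CPM. Col1a2, the second chain of type I collagen, stood at 0.187, 0.119 and 0.492 CPM in young and 21.9, 7.47 and 17.5 CPM in old samples, without overlap, at a log2 fold change of 5.80 (SE 0.78, edgeR adjusted p = 0.366). Its groups also did not overlap once the Col1a1-bearing cells were removed. Ereg, an EGF-family ligand released by ADAM17, stood at 1.51, 0.0103 and 0.00 CPM in young and 20.2, 2.32 and 2.71 CPM in old samples. Thbs2, a matrix protein that aids the clearance of MMP2, stood at 0.142, 0.884 and 0.127 CPM in young and 0.799, 22.1 and 5.54 CPM in old samples.

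In the Myog comparison 50 of these genes were tested, and 8 rose and 18 fell, against 14.9% and 18.0% of all genes. Of the 15 shed substrates tested, 2 rose and 7 fell. The Notch ligand Dll1 rose by 1.95 (SE 0.40, edgeR adjusted p = 0.015), while Jag1, another Notch ligand, fell by 2.02 (SE 0.21, adjusted p = 0.000503) and Nrg1 by 1.57 (SE 0.17, adjusted p = 0.000594). Of 10 matrix substrates 4 fell and 0 rose, among them versican (Vcan, -1.58, SE 0.27, adjusted p = 0.00623) and fibronectin (Fn1, -1.06, SE 0.20, adjusted p = 0.00896). Of the 8 partners tested, Tspan33, a tetraspanin that binds ADAM10, was highest at 4.02 (SE 0.49, adjusted p = 0.00275). The protease activator Furin was at 0.70 (SE 0.15, adjusted p = 0.00952) and the urokinase receptor Plaur at -1.25 (SE 0.21, adjusted p = 0.0041).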

How the data were processed

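The authors deposited raw UMI counts per gene and cell barcode for each sample, whole numbers with no normalization, made with Cell Ranger 7.0.0 (young and old replicate 1) or 7.2.0 (the other 4), per the file headers. The submitters' processing notes name Cell Ranger 7.2.0, Seurat 5.134 and the mm10 genome. Aligner settings, strand and the treatment of intronic reads are not given in the sources used here.

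Barcodes needed at least 1000 UMIs, at least 500 detected genes and under 15% mitochondrial UMIs to enter. No doublet caller was run, and an alternative removed the 10% of cells with most UMIs. Counts were summed per sample and tested over all genes with edgeR 4.0.16 in R 4.3.3 (two-sided quasi-likelihood F test in robust mode, after filterByExpr and TMM scaling; model terms gene list and group), and Benjamini-Hochberg adjustment at 0.05. Standard errors come from the fold change and its F statistic. For Myog classes and shares, cells were thinned to 5000 UMIs. Shallower cells (147 to 362 per sample) were left out, and the class test had the sample as a block. DESeq2 1.42.0 was an alternative. The code was tested on simulated data. Gene positions are from GENCODE vM21 (GRCm38), and promoter letters from RefSeq (GRCm38.p6), where 42 of 71 members had a window. Chromosome medians are of log2(CPM + 1) against each gene's median over samples.

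Named members were all Timp genes, the 20 with the highest mean CPM, those without overlap or with an unadjusted p under 0.05, those reaching 10 CPM with a range of 10 times or more, and up to 10 called members per direction in the Myog comparison. Other members given with values (Adamts1, Mmp8, Mmp9, Mmp10, Mmp12, Mmp13, Mmp20 and Mmp27) were chosen after their values were seen. The members and lists were chosen with earlier results of these data known. With 3 samples against 3, an exact permutation test cannot pass 0.05, so shares of cells carry no test.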

Additional observations from a re-analysis of the deposited data

Results flagged for a closer look

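In the Myog comparison, the paired difference of Adamts6 in young replicate 1 stood apart from the other pairs only with an added count. The difference of log2 CPM between Myog-positive and Myog-negative cells, with 1 UMI added to each count, was -0.77 there and lay between -1.10 and -1.02 in the other 4 samples. The positive cells of young replicate 1 held 8 Adamts6 UMIs. With the UMI added, the distance exceeded Dixon's critical value for 5 samples, which chance exceeds in about 1 of 20 groups, and 10 members were examined in this way. With no UMI added, an alternative chosen after the data were seen, the difference was -0.94 in young replicate 1 and lay between -1.21 (young replicate 3) and -1.05 in the other samples, and no pair exceeded that value.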

How the results depend on the processing

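The count of members called for old against young was 0 in both directions under the edgeR alternatives, including without the Col1a1-bearing cells (chosen after the data were seen) and without any 1 sample, and DESeq2 called 1 higher (Adam23) and 0 lower. Replicate numbers were checked for pairing: deviations of same-numbered samples correlated at 0.378, 0.224 and -0.0815, and those of unlike-numbered samples at -0.408 to 0.276. With 3 samples per group, and both first replicates on the shorter gene list, these values cannot decide whether the numbers pair samples. A fit with the replicate block called 0 members. In the Myog comparison, members called higher numbered 2 with DESeq2 (Mmp15 and Adamts4) and 0 to 1 without any 1 sample, and members called lower 7 to 11. The share of all genes called in these alternative fits is not given here, so these counts cannot be read against it. Without thinning the member called higher was Adamts4 (0.63, adjusted p = 0.0179) in place of Mmp15. Adam15 and Mmp10 were also called lower without thinning (adjusted p = 0.0222 and 0.0139) and with 1 or more Myog UMIs as the mark (0.0285 and 0.0124). With 1 sample left out, Adam15, Adam22 or Mmp10 were called lower in some fits. The members called lower under every alternative were Timp1, Timp3, Mmp14, Mmp16, Adamts6, Adamts10 and Adam3. Mmp2 lost its call without thinning (adjusted p = 0.173) and with DESeq2 (0.181).

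None of the fold changes of old over young that changed sign was called in any fit, and the cause was not tested. On the 4 samples of the longer list they were 0.0797 for Adam15, -0.11 for Adam2, -0.30 for Adamts6 and 0.65 for Timp4. Without the gene list term they were -0.13 for Timp2, 0.54 for Timp4, -4.36 for Mmp3 and -0.0265 for Adamts6. With the replicate block they were 0.0374 for Adam19, -0.13 for Timp2, 0.0262 for Timp4 and -0.31 for Mmp3. Without the Col1a1-bearing cells they were -0.00604 for Timp2, 0.0124 for Timp4 and -1.19 for Mmp3. Timp2 was at -0.00397 with DESeq2, and Timp4 at 0.0473 with upper quartile scaling and 0.11 without the 10% of cells with most UMIs. Leaving out 1 sample at a time gave ranges of -0.39 to 0.0266 for Mmp14, -0.94 to 0.93 for Adam19, -0.68 to 0.64 for Timp2, -0.15 to 0.98 for Adam2, -4.65 to 0.16 for Adam8, -0.55 to 0.0800 for Adam15, -0.72 to 4.87 for Mmp23, -0.77 to 0.65 for Timp4, -3.45 to 1.92 for Mmp3, -0.30 to 1.27 for Adamts6, -0.0597 to 0.107 for Adam17, -1.91 to 0.93 for Adam12 and -1.29 to 0.67 for Adamts14. The fold change of Adamts2 had no value on the longer list, where the gene did not pass the filter. Fits without young or old replicate 1 rest on the 4 longer-list samples, as the gene list term takes up the other first replicate. They are thus no alternative separate from the longer-list fit. Each group has 3 populations, and members under 1 CPM rest on few UMIs.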
